A study of Rattus norvegicus with 4 samples.

Results

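Interferon-responsive genes were examined in the left ventricle of rats with 5/6 nephrectomy, a model of chronic kidney disease in which most of the kidney mass is removed. The genes were a list of 37 symbols, matched by symbol to a deposited table of 22861 loci. Of the 37, 34 were found, and Xaf1, Herc6 and Zbp1 were not matched and are not analysed here. One of the 34, Ifit1, had a mean of the group values under 1 FPKM (fragments per kilobase of transcript, scaled to the number of mapped fragments) and was not tested by the authors, so 33 had both a level of at least 1 FPKM and a test.

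All animals were male Sprague Dawley rats on 0.4% Dyets chow that had the surgery at 10 weeks of age. They received a locked nucleic acid oligonucleotide (LNA), a modified nucleic acid that binds an RNA of matching sequence and blocks it, through the jugular vein. The dose was 1 mg/kg, given on each of 3 days in the weeks numbered 1 and 4 after surgery, and the left ventricle was taken at week 7. In the anti-miR-21 group the LNA was directed against miR-21-5p, and in the anti-scr group it was a scrambled control. Each group had 2 libraries, each made from a pool of 2 to 3 rats. Animals without nephrectomy or without an LNA are not analysed here, so every value below is from hearts of nephrectomised, LNA-treated rats. The 4 libraries held 47826514 to 54952098 reads, of which 94.0% to 94.4% mapped. The deposited FPKM is 1 value per group, with no value per library, so the spread between pools cannot be shown and no overlap between groups can be stated. It can enter only through the p-value and q-value (p adjusted for all tested loci) that the authors' Cuffdiff test gave. The groups are taken from their labels, and no measure of miR-21-5p was used here. A log2 fold above 0 means a higher FPKM in the anti-miR-21 group than in the anti-scr group, and a gene was called where the deposited q was under 0.05. Where a pair of FPKM values is given, the anti-scr value comes first.

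Interferons are secreted proteins that signal through cell surface receptors and JAK kinases. After type I interferon, a complex that contains STAT2 and IRF9 binds the interferon-stimulated response element (ISRE) near its target genes. Interferon gamma acts largely through another element, the gamma-activated site (GAS). The genes so induced encode sensors of foreign nucleic acid, proteins that block viral replication, and feedback regulators. In the heart they are expressed by resident macrophages, endothelial cells, fibroblasts and cardiomyocytes.

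The inhibited miRNA is shown first because the treatment is defined by it; the capitals mark its seed, bases 2 to 8, from RefSeq. It is encoded on the minus strand of GRCr8 at chr10:71902653-71902674.
rno-miR-21-5p: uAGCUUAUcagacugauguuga

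Promoter windows of members follow because the group is defined by a shared response, and they show the letters through which interferon-activated factors are known to act. The promoter table, from RefSeq on build GRCr8, holds 250 bases before and 50 bases after each gene's start, and 27 of the 37 genes matched by symbol. The ISRE core was searched as GAAANNGAAA on both strands, where cores may overlap, and the GAS as TTCNNNGAA, which reads the same on both strands. Of the 27 genes, 17 (63.0%) held an ISRE core, against 3.92% of all 33469 promoters in the table, and 10 (37.0%) held a GAS, against 8.87%. A match describes letters and does not show binding.

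The following windows hold ISRE cores, in capitals, with 30 bases on either side where the promoter extends so far. They belong to 4 genes with a deposited p under 0.05, to Ifit3, which had the second highest fold, and to Ifitm3, the most abundant member.
Rsad2, chr6:48788228-48788297, minus strand: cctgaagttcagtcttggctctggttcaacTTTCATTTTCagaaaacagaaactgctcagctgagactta
Ifi44, chr2:243303791-243303896, minus strand: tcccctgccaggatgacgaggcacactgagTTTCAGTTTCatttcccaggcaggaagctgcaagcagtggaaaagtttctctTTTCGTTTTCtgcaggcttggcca
Gbp2, chr2:234005666-234005735, plus strand: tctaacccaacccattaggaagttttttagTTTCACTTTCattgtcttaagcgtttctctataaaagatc
Bst2, chr16:18255053-18255128, minus strand: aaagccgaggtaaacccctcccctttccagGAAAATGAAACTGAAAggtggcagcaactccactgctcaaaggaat
Ifit3, chr1:241527252-241527321, plus strand: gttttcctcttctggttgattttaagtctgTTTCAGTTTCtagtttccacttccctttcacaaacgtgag
Ifitm3, chr1:205541763-205541832, minus strand: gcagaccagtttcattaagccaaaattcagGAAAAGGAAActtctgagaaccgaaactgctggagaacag

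The next windows hold a GAS, in capitals. Slfn3, the 1 called member, had 3 promoter entries under its symbol, of which 0 held an ISRE core and 2 held a GAS, and the first entry is shown. Irf1 had no ISRE core and 1 GAS.
Slfn3, chr10:68519277-68519340, plus strand: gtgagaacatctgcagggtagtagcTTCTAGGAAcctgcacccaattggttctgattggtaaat
Irf1, chr10:38417763-38417831, plus strand: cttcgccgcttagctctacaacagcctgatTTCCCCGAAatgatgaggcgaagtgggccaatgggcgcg

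Most interferon-responsive genes had a slightly higher value under anti-miR-21, and 1 of them passed the authors' test. Among the 33 genes with at least 1 FPKM, 26 were higher and 7 lower in value, and the median log2 fold was 0.29. Over all 9941 named loci at the same level, 51.9% were higher in value and the median log2 fold was 0.01. In the authors' deposited table, Slfn3 rose and no other member was called, so 1 of 33 tested members was called (3.03%), against 0.815% of all 12876 tested loci. At an unadjusted p under 0.05 in the authors' deposited table, 6 members were higher (18.2% of those tested) and 1 was lower (3.03%). The same threshold was passed upward by 3.18% and downward by 6.11% of all tested loci. The 6 higher genes were Slfn3, Ifi44, Rsad2, Mx2, Gbp2 and Usp18, and the lower one was Bst2. Leaving out Slfn3 left 0 called members and 6 with a p under 0.05. In a bulk sample, fewer cells of a type and less RNA per cell cannot be told apart.

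**Figure D1:**
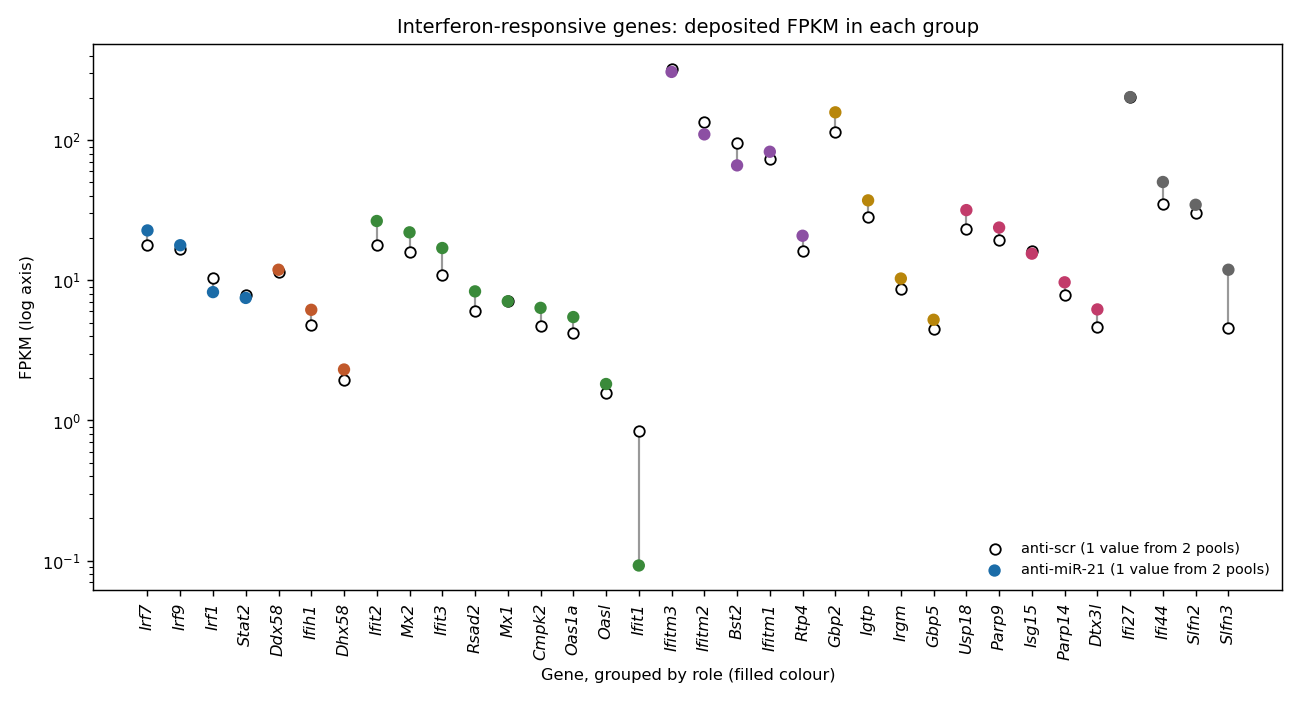
Deposited FPKM (log axis) of the 34 interferon-responsive genes in the table, with anti-scr as open and anti-miR-21 as filled circles, coloured and grouped by role; each circle is the authors' 1 value for a group, so there is no error bar. Levels at a mean of at least 1 FPKM ran from 1.69 (Oasl) to 315 (Ifitm3), and among these Slfn3 shows the widest separation.

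Slfn3 belongs to the Schlafen family, whose members are induced by interferon and act in growth control and antiviral defence. Its FPKM was 4.56 under anti-scr and 11.9 under anti-miR-21, a ratio of 2.61 (log2 fold 1.38; chromosome 10, 70045686 to 70106801, on rn5). In the authors' deposited table it had a p of 5e-05 and a q of 0.0131, the lowest p and q of any locus, shared by 49 loci. Slfn2, which keeps T cells quiescent in mice, lies 38 kb away. Its FPKM was 30.2 under anti-scr and 34.6 under anti-miR-21 (log2 fold 0.20), with a q of 0.828 in the authors' deposited table. Slfn13, another family member, was not among the 37 but on a further list of interferon-responsive genes. Its FPKM was 5.56 under anti-scr and 8.41 under anti-miR-21 (log2 fold 0.60), with a p of 0.0120 and a q of 0.311 in the authors' deposited table. Schlafen genes are close copies of each other, so reads may have been divided between them by a model, and the single values are uncertain.

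The transcription factors that carry the interferon signal did not share a direction. Irf7, which amplifies type I interferon production, had 18.0 FPKM under anti-scr and 22.7 under anti-miR-21 (log2 fold 0.34). Irf1, which acts mainly after interferon gamma, had 10.4 and 8.24 FPKM (log2 fold -0.34). Both lay well short of the call, with a q of 0.692 for Irf7 and 0.704 for Irf1 in the authors' deposited table. Stat2 had 7.80 and 7.49 FPKM (log2 fold -0.06). Irf9, the DNA-binding part of the type I complex, had 16.8 and 17.8 FPKM (log2 fold 0.08), at a locus it shares with Rnf31, so the value belongs to both genes. None of the 4 had a p under 0.05 in the authors' deposited table.

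The sensors of viral RNA were all higher in value by small amounts. Ifih1, which encodes MDA5, had 4.77 FPKM under anti-scr and 6.16 under anti-miR-21 (log2 fold 0.37). Ddx58, which encodes RIG-I, had 11.4 and 11.9 FPKM (log2 fold 0.07). Dhx58, which encodes LGP2, a modulator of both, had 1.96 and 2.31 FPKM (log2 fold 0.24). None of the 3 was called, and their lowest p in the authors' deposited table was 0.0999, for Ifih1.

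The proteins that act on viral RNA and replication had the highest median of the 7 role groups. Of 8 genes with at least 1 FPKM, 7 were higher in value and the median log2 fold was 0.45. Ifit2 and Ifit3 belong to a family that limits the translation of foreign RNA, and their folds were the highest after Slfn3. Ifit2 had 18.0 and 26.5 FPKM (log2 fold 0.56) and Ifit3 had 11.0 and 17.0 FPKM (log2 fold 0.63), in each case with the lower value in anti-scr. Neither passed, with a p of 0.110 for Ifit2 and 0.265 for Ifit3 in the authors' deposited table. Ifit1, from the same cluster, was near the limit of measurement, with 0.846 FPKM in anti-scr and 0.0923 in anti-miR-21, and was not tested. The 3 genes share 1 interval in the table (chromosome 1, 260038027 to 260180919, on rn5) and are near copies, so the division of reads among them is uncertain.

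Rsad2 and Cmpk2 lie 15 kb apart on chromosome 6 and had nearly equal folds. Rsad2 encodes viperin, which makes a chain-terminating nucleotide, and had 6.05 FPKM under anti-scr and 8.34 under anti-miR-21 (log2 fold 0.46). Cmpk2, a mitochondrial nucleotide kinase, had 4.70 and 6.36 FPKM (log2 fold 0.44). The p in the authors' deposited table was 0.0454 for Rsad2 and 0.0846 for Cmpk2. The dynamin-like GTPase genes Mx1 and Mx2 lie 122 kb apart on chromosome 11 and had unlike values. Mx2 had 16.0 and 22.0 FPKM (log2 fold 0.46) with a p of 0.0251 in the authors' deposited table, and Mx1 had 7.17 and 7.08 FPKM (log2 fold -0.02) with a p of 0.939. Whether the folds of such neighbours differ was not tested. The oligoadenylate synthetase gene Oas1a and its relative Oasl, at 4.84 and 1.69 FPKM on average over the groups, had log2 folds of 0.38 and 0.23.

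**Figure D2:**
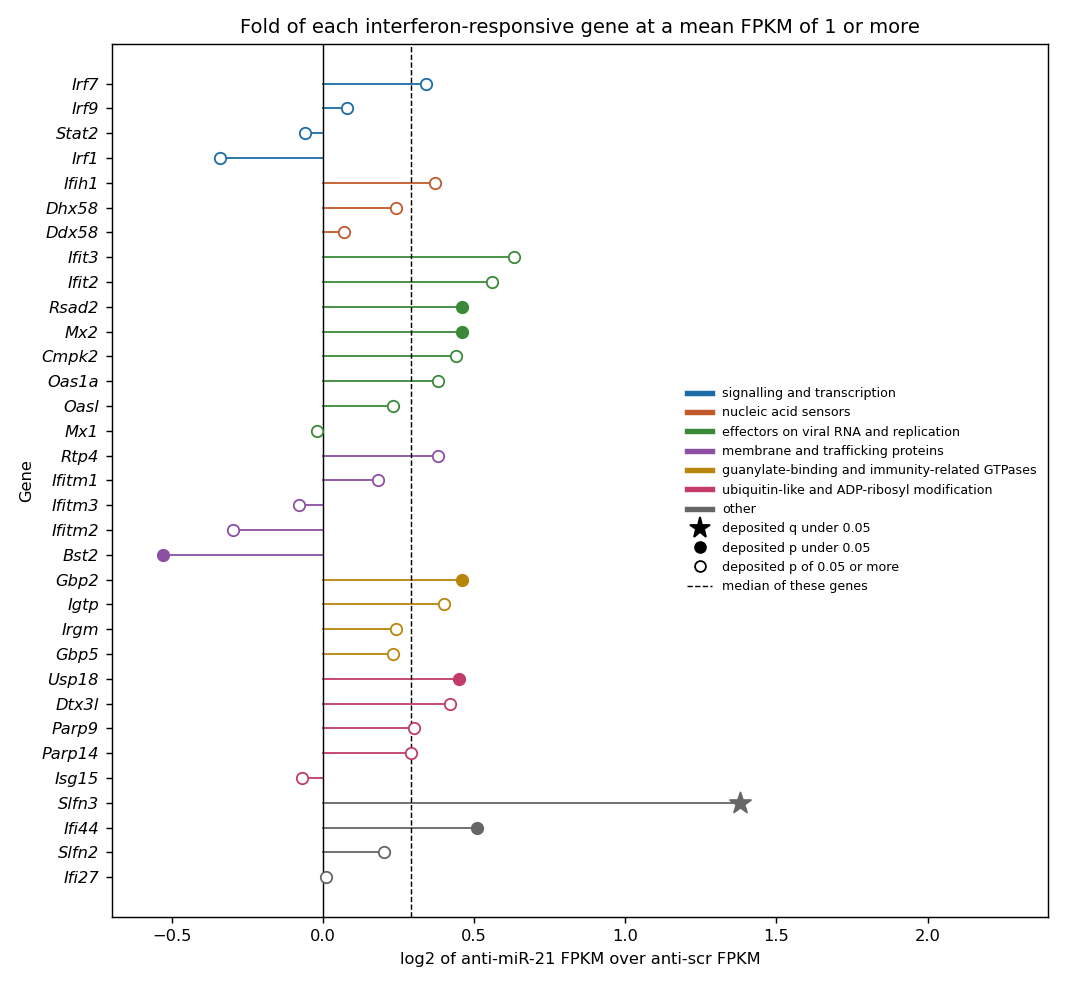
Log2 of anti-miR-21 FPKM over anti-scr FPKM for the 33 genes at a mean of at least 1 FPKM, grouped by role; the star marks a deposited q under 0.05, filled circles a deposited p under 0.05, and the dashed line the median. The 7 genes left of 0 are Stat2, Irf1, Mx1, Isg15, Ifitm2, Ifitm3 and Bst2, and all but Slfn3 lie between -0.53 and 0.63.

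The membrane and trafficking proteins, among them the most abundant member Ifitm3, were not higher as a group. Of 5 genes, 2 were higher and 3 lower in value, with a median log2 fold of -0.08. Bst2 encodes tetherin, which holds budding virus at the cell surface. It had 95.3 FPKM under anti-scr and 66.1 under anti-miR-21 (log2 fold -0.53; chromosome 16, 19799559 to 19804090, on rn5), with a p of 0.0111 and a q of 0.298 in the authors' deposited table. It was the 1 member with a lower value and a p under 0.05 in the authors' deposited table. Its promoter window, shown above, holds 2 overlapping ISRE cores. The Ifitm proteins block fusion of enveloped viruses. Ifitm3 had 323 and 307 FPKM (log2 fold -0.08), Ifitm2 had 135 and 110.0 FPKM (log2 fold -0.30), and Ifitm1 had 73.2 and 82.7 FPKM (log2 fold 0.18). None of these 3 had a p under 0.05 in the authors' deposited table, and as short, similar genes in 1 cluster they can share reads. Rtp4 had 16.1 and 20.8 FPKM (log2 fold 0.38) with a p of 0.478 in the authors' deposited table.

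All 4 GTPase genes that act on vacuoles holding microbes were higher in value. Gbp2, a guanylate-binding protein, was the most abundant of them with 115 FPKM in anti-scr and 158 in anti-miR-21 (log2 fold 0.46; chromosome 2, 266750141 to 267139556, on rn5). Its p was 0.0185 and its q 0.379 in the authors' deposited table. Gbp5, 24 kb away, had 4.46 and 5.23 FPKM (log2 fold 0.23). The immunity-related GTPase genes Igtp and Irgm had log2 folds of 0.40 and 0.24, from 28.2 to 37.2 FPKM for Igtp and from 8.69 to 10.3 FPKM for Irgm. Igtp lay just short of the unadjusted threshold, with a p of 0.0577 in the authors' deposited table.

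The genes of ISG15 conjugation and ADP-ribosylation were mostly higher in value. Usp18 removes ISG15 from proteins and dampens signalling at the type I receptor, and it had 23.3 FPKM under anti-scr and 31.7 under anti-miR-21 (log2 fold 0.45). Its p was 0.0393 and its q 0.507 in the authors' deposited table. Isg15 itself, the ubiquitin-like protein, had 16.3 and 15.5 FPKM (log2 fold -0.07) at the more abundant of its 2 loci. Parp9 and Dtx3l encode partners in 1 complex and share an interval on chromosome 11. Their log2 folds were 0.30 and 0.42, and that of Parp14, 338 kb from Parp9, was 0.29. Usp18 was the 1 gene of 5 in this group with a p under 0.05 in the authors' deposited table.

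Among the remaining genes, Ifi44 had 35.3 FPKM under anti-scr and 50.3 under anti-miR-21 (log2 fold 0.51). Its p was 0.0155 and its q 0.350 in the authors' deposited table. Ifi27, the second most abundant member, had 202 and 203 FPKM (log2 fold 0.01) with a p of 0.969 in the authors' deposited table. Its promoter holds 2 ISRE cores, as does that of Ifi44. The 16 members with an ISRE core and at least 1 FPKM had a median log2 fold of 0.35, with 13 higher in value. The 9 matched members without one had a median of 0.20, with 6 higher in value, and this difference was not tested. Here, without one means that the 300 bases searched held no exact core. Isg15, Ifit2, Mx2, Usp18, Ddx58, Dhx58, Rtp4 and Ifitm1 had at least 1 FPKM but no promoter under their symbol. They are in neither set, and their log2 folds ran from -0.07 (Isg15) to 0.56 (Ifit2).

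The fold of a gene varied with how closely genes are packed around it, and the members followed the same trend. Across 9858 named loci with a position, Spearman's rho between the log2 fold and the count of other named loci up to 500 kb away on each side was -0.43 (Pearson's r -0.38). Across the 32 members with a position and at least 1 FPKM, rho was -0.51 and r -0.41. These are descriptions across genes, which share the same 4 libraries and whose neighbours overlap. Of the 8 members with 31 or more such neighbours, the range in the densest of 10 equal bins of loci, 3 were higher and 5 lower in value. Those lower were Stat2, Isg15, Ifitm2, Ifitm3 and Bst2, and those higher were Irf7, Ifitm1 and Dhx58. In that bin of all named loci, 20.4% were higher in value and the median log2 fold was -0.27. All 4 members with at most 3 such neighbours (Rsad2, Cmpk2, Gbp5 and Ifi44) were higher, as were 78.8% of the named loci in the sparsest bin, where the median was 0.20. Measured from the median of loci of like density, 28 of the 32 members lay above it and the median difference was 0.31. Relative to that median, Bst2 had a log2 fold of -0.26, Irf1 of -0.31 and Slfn3 of 1.51.

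**Figure D3:**
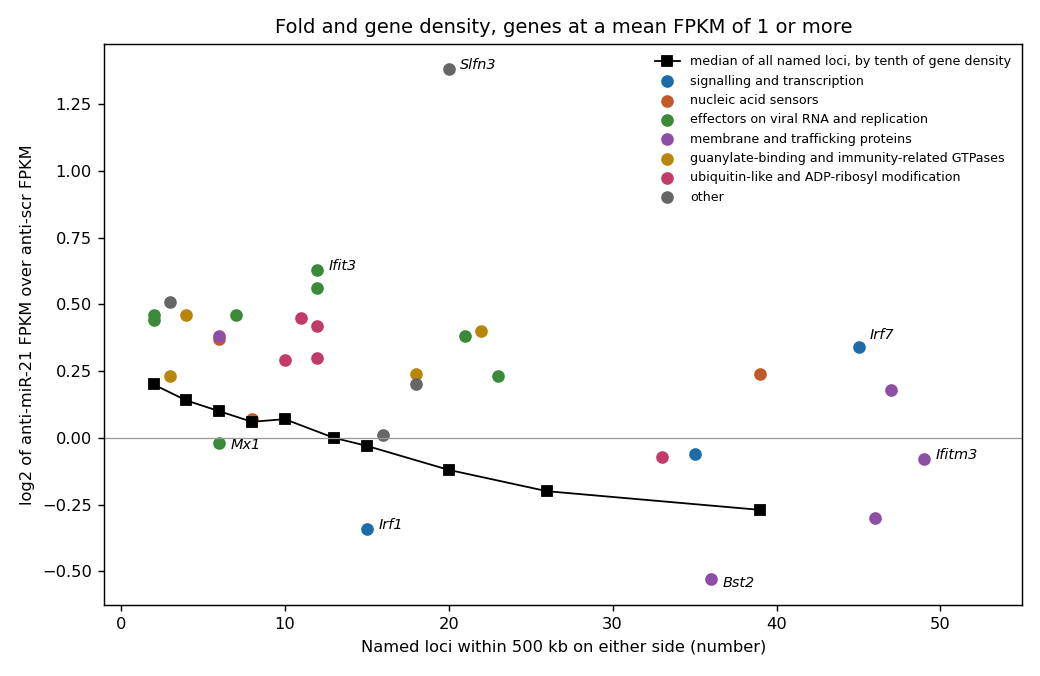
Log2 fold of 32 interferon-responsive genes (coloured by role) against the count of other named loci up to 500 kb away on each side, with the median of all named loci in each of 10 bins of that count as black squares at the bin's median count. The squares decline from 0.20 to -0.27, and 28 of the 32 genes lie above the median of their own bin.

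Upstream parts of the pathway showed no called gene. Over all tested loci 0.815% were called, so lists of this size would be expected to hold few or none. On a list of 22 interferon ligands, receptors and signalling genes, 21 were in the table and 17 were tested. Of these, 0 had a p under 0.05 in the authors' deposited table, a threshold that 3.18% of all tested loci passed upward and 6.11% downward. The median log2 fold of the 17 was 0.08, with 10 higher and 7 lower in value. The ligand genes Ifnb1 and Ifna1 were listed at 0 in both groups, and Ifng stood at 0.148 and 0.166 FPKM. The interferon gamma receptor gene Ifngr1 had 61.7 and 65.3 FPKM (log2 fold 0.08). Of 15 genes of nucleic acid sensing that act before interferon is made, 10 were in the table and 8 were tested, with a median log2 fold of 0.20. The endosomal RNA receptor gene Tlr7 was the 1 gene of this list with a p under 0.05 in the authors' deposited table, at 2.78 and 4.36 FPKM (log2 fold 0.65; p = 0.0114, q = 0.301).

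A further list of 55 interferon-responsive genes had a median fold nearer to that of the whole table. Of 38 in the table, 33 were tested and 0 were called, against 0.815% of all tested loci. The median log2 fold of the 33 with at least 1 FPKM was 0.09. Of these, 22 were higher and 11 lower in value, where 51.9% of named loci were higher. This list was not recentred by gene density. At a p under 0.05 in the authors' deposited table, 3 of the 33 tested were higher, against 3.18% of all tested loci. At the same threshold 1 was lower, against 6.11% of all tested loci. Those higher were Slfn13, the GTPase gene Ifi47 (11.2 to 15.3 FPKM, log2 fold 0.46) and the nuclear body gene Sp100 (34.4 to 46.4 FPKM, log2 fold 0.43). The lower one was the immunoproteasome gene Psmb10, at 11.6 and 7.44 FPKM (log2 fold -0.64). Among those with at least 1 FPKM, the chemokine gene Cxcl10 had the highest fold of the list, chosen after its value was seen, with 1.89 and 3.78 FPKM (log2 fold 1.00), yet a p of 0.670 in the authors' deposited table.

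Markers of several cell types had unequal levels in the groups alongside these genes, and their part in the members' folds was not tested. Of 15 macrophage markers in the table, 13 were higher in value, with a median log2 fold of 0.27 and a summed level of 478 FPKM in anti-scr and 619 in anti-miR-21. None was called, and Lyz2 (log2 fold 0.60), Mrc1 (0.53) and Ctss (0.42) had a p under 0.05 in the authors' deposited table. Of 8 neutrophil markers, 2 had at least 1 FPKM, with a summed level of 49.2 FPKM in anti-scr and 94.9 in anti-miR-21. Of these, S100a9 rose from 29.2 to 58.1 FPKM with a q of 0.0318 in the authors' deposited table, while the granule genes Mpo and Elane were listed at 0 in both groups. The 8 lymphocyte markers with at least 1 FPKM had a median log2 fold of 0.05, with 5 higher and 3 lower in value. Their summed level was 33.1 FPKM in anti-scr and 36.8 in anti-miR-21, of which Cd4 was the largest share (18.0 and 22.1 FPKM). The 5 plasmacytoid dendritic cell markers at that level had a median of -0.02, with a summed level of 124 and 98.4 FPKM, of which Bst2, also a member, is the larger share. The 2 monocyte markers at that level had a median of 0.14 (summed level 52.7 and 57.8 FPKM), and 4 erythrocyte genes one of 0.17 (2009 and 2227 FPKM).

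Markers of the heart's own cells had folds of both signs. Of the 8 fibroblast markers with at least 1 FPKM, 7 were higher in value (median log2 fold 0.26; summed level 2459 and 2941 FPKM), and Postn was called as higher in the authors' deposited table. Gsn was the lower one, at 447 and 306 FPKM (log2 fold -0.55), with a p of 0.00470 in the authors' deposited table, and Col1a2 was listed at 0.0123 and 0 FPKM. The 9 endothelial markers had a median of -0.05 (728 and 694 FPKM). Of 9 cardiomyocyte loci, 8 were lower in value (median log2 fold -0.36), with a summed level of 100719 FPKM in anti-scr and 79609 in anti-miR-21, and Myl3 was called as lower in the authors' deposited table. These levels are those of cardiac muscle, as the tissue label states. The summed level of the 33 members was 1283 and 1355 FPKM.

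**Figure D4:**
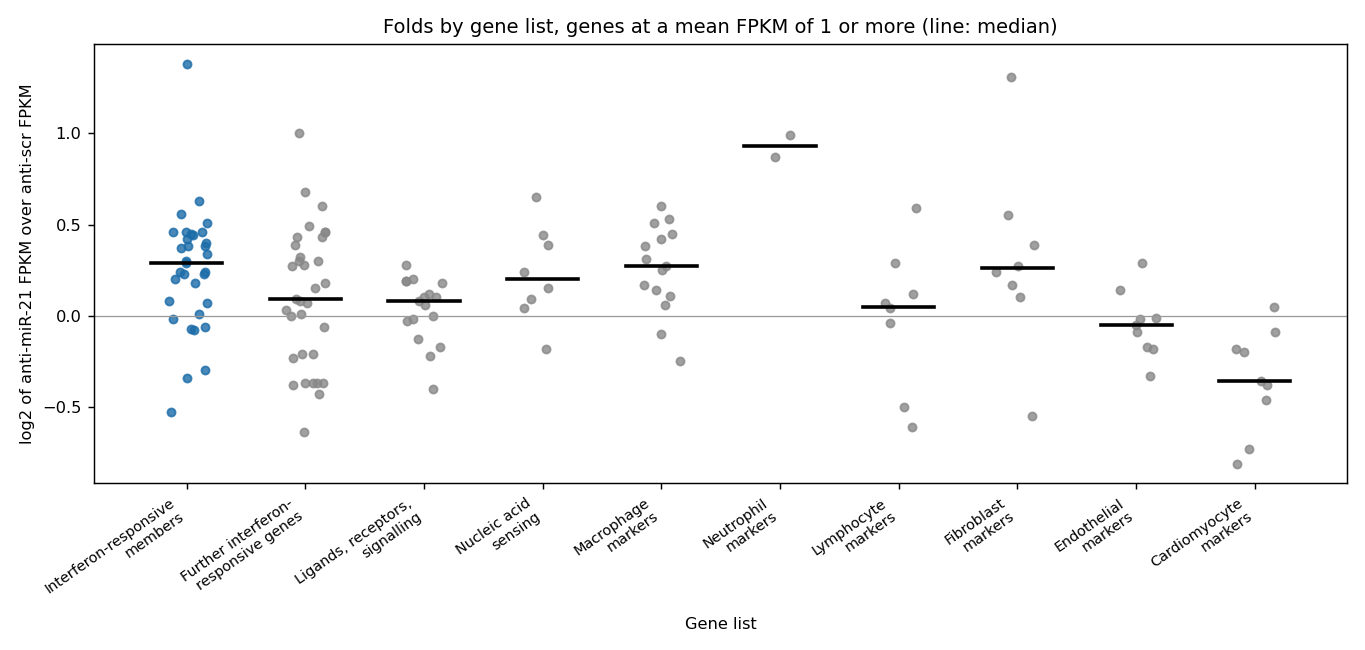
Log2 of anti-miR-21 FPKM over anti-scr FPKM for each gene at a mean of at least 1 FPKM, by gene list; each point is a gene and each line the list's median. The medians are 0.29 for the interferon-responsive members, 0.09 for the further interferon-responsive genes, 0.27 for macrophage and -0.36 for cardiomyocyte markers.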

How the data were processed

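RNA of 4 left ventricle libraries, 2 per group, was sequenced as read pairs from a stranded total RNA kit, per the labels. The submitters' processing notes name Cuffdiff, TopHat2 2.0.10, cutadapt and Cufflinks 2.0.10, and the build rn5; annotation and options are not given in the sources used here. The authors deposited 1 FPKM value per locus and group, with a p-value and a q-value, and FPKM values shift together when a few abundant transcripts change. Over all loci at a mean of at least 1 FPKM, the values summed to 2619379.6 in anti-scr and 10154386 in anti-miR-21. Over named loci at that level they summed to 774776 and 714545. The highest mean was 5579695 FPKM over all loci and 34786 over named loci. How this difference bears on the folds was not tested. The authors also deposited the count of reads and the mapped percent of each library. In 97 rows with several gene symbols the cells were shifted and were realigned; 1 of these, Irf9, thereby has no position. Where a gene had several loci, the one with the highest mean FPKM was used.

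Folds, medians, gene density and motif matches were computed here with Python 3.11.15, pandas 2.3.3 and scipy 1.17.1, and the functions were checked on simulated data. Calls rest on the deposited q across all 12876 tested loci. A locus was taken as tested unless its p was 1 with a statistic of 0. Positions are on rn5 and promoters on GRCr8. Values are given for members with a deposited p under 0.05, the 10 most abundant, and the most abundant of each role; the remaining members are described as well. The values of 1 gene of the signalling list are not reported here. The members and lists were chosen with earlier results of these data known. Whether pools came from separate rats is not stated. How the authors' test modelled the spread between pools is not given either. The p-values therefore cannot be read as the observed spread of a gene between its pools.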

Additional observations from a re-analysis of the deposited data

How the results depend on the processing

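The median log2 fold of 0.29 lay between 0.25 and 0.31 under all 11 alternatives. These were other FPKM minimums (5 and 0.1), a pseudocount of 1, recentring on all loci or on loci of like density or level, the mean, summed loci, leaving out shared loci, and leaving out families with near copies or Slfn3. The families left out were Ifit, Ifitm, Slfn, Mx and Oas, while the GTPase genes Gbp2, Gbp5, Igtp and Irgm were kept. The number of members higher in value was 26 of 33. It was 22 of 29 at a minimum of 5 FPKM and 26 of 34 at a minimum of 0.1 FPKM. After recentring it was 25 of 33 on all named loci and 28 of 32 by density. It was 18 of 22 without the left-out families, and 25 without Slfn3. The number with a deposited p under 0.05 was 7, and 5 without the left-out families, with Gbp2 among the 5. The call of 1 member held when q was recomputed, and at a q threshold of 0.1. No member was called at a q threshold of 0.01 (0 members), which no locus of the table passes because its lowest q is 0.0131. Without Slfn3, an alternative chosen after seeing the data, 0 members were called. Neither libraries left out in turn nor a replicate block were run. No paired analysis was possible because the table holds 1 value per group. Depth per library therefore gives no interval for any gene.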

Other observations

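Genes of antigen processing, which interferon gamma also induces, were lower in value under anti-miR-21, as were most named loci of like gene density. These antigen processing genes were singled out from the further list after their values were seen. The immunoproteasome subunit genes Psmb8 (13.8 FPKM in the anti-scr group, 10.7 in the anti-miR-21 group) and Psmb9 (14.1 and 10.9 FPKM) each had a log2 fold of -0.37, as did the peptide transporter gene Tap1 (3.60 and 2.78 FPKM). The proteasome activator genes Psme1 (506 and 431 FPKM) and Psme2 (98.9 and 85.3 FPKM) had folds of -0.23 and -0.21. Tap2, which encodes the partner of Tap1, was listed at 0 in both groups. Psmb10, also an immunoproteasome subunit gene, had 11.6 and 7.44 FPKM, the lowest fold of the set at -0.64. In the authors' deposited table Psmb10 had a p of 0.0308 and a q of 0.459, and none of the other measured genes of the set had a p under 0.05. All of these lie among many genes, with 50 named loci within 500 kb of Psmb8, Psmb9 and Tap1, 32 within 500 kb of Psmb10 and 35 within 500 kb of Psme1 and Psme2. These counts fall in the densest of the 10 bins, where 20.4% of named loci were higher in value and the median log2 fold was -0.27. Psme1 and Psme2 lay above that median, and Psmb8, Psmb9, Tap1 and Psmb10 below it.

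Members were also set beside their own genomic neighbours, as a description. For the 32 members with a position and at least 1 FPKM, the neighbours were other named loci within 500 kb, leaving out members. Only loci with a mean of at least 1 FPKM were used, which gave 1 to 28 neighbours each. The counts of gene density above had no such minimum, so they are larger for many members (49 against 13 for Ifitm3). The fold of 28 members lay above the median of their neighbours, and the median difference was 0.35 on the log2 scale. Irf7 had a fold of 0.34 where the neighbours' median was -0.31, and Ifitm2, in the same neighbourhood, had -0.30 beside -0.31. Bst2 had -0.53 beside -0.47. Slfn3 had 1.38 beside -0.06. Members in 1 cluster share neighbours, so these values are not independent.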
